A study of Mus musculus with 9 samples.

Results

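MHC class I presentation and the interferon-inducible GTPases form a set of 31 mouse genes, listed by name through their Ensembl gene IDs. No cut on a measured value set the list, but it was chosen with earlier results of these data known. Of the 31 genes, 29 had a row among the 38924 genes of the count table, and these 29 passed the filter on low counts in all 3 comparisons. The levels of Gbp5 and Gbp6 were not analysed here, and Gbp5 enters only the promoter search. The genes were followed in cardiac fibroblasts of 8 to 10 weeks old mice on a C57BL/6 background that carry the Cas9 nuclease and EGFP at the Rosa locus, a genotype that control and knockdown cells share. Cells were cultured for 3 days, sorted as CD45-CD31-CD90+, that is, without the surface markers of leukocytes and endothelium and with a fibroblast marker, and replated at 10000 cells per square centimetre. After 6 further days, at 80 to 90% confluency, they were transfected by lipid with scrambled guide RNAs (control), with guides to Gata4 (Gata4 KD) or with guides to Tbx20 (Tbx20 KD), with 2 guides for each target. Each group holds 3 libraries, named a, b and c. The study describes them as 3 biological replicates of each condition. The labels do not say whether these came from separate animals or cultures, so p-values measure only the spread between these libraries.

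Class I molecules display peptides from inside the cell to CD8 T cells. The proteasome cuts cytosolic proteins, the Tap1/Tap2 pump moves the pieces into the endoplasmic reticulum, Erap1 trims them, Tapbp (tapasin) holds an empty class I molecule at the pump, and a heavy chain with its light chain B2m carries the loaded peptide to the surface. Interferons raise most of these genes. They exchange the catalytic subunits of the standard proteasome for the inducible Psmb8, Psmb9 and Psmb10, and they induce the proteasome activator made of Psme1 and Psme2. Irf1 and Irf8 are interferon-regulated transcription factors, and Nlrc5 is the transactivator of class I genes. Guanylate-binding proteins (GBPs) and immunity-related GTPases (IRGs) act inside the cell against vacuoles that hold parasites or bacteria. Fibroblasts, unlike antigen-presenting cells, normally show class I without class II.

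Total counts were 31214828 to 41950397 per library. Gm42418, a gene at a ribosomal RNA locus, took 2.71% of the counts of Gata4 KD a, and in no other library did a single gene take more than 1.11%. Gata4 was 165, 155 and 167 CPM in control (counts scaled to library size, with TMM factors over the 9 libraries), 54.0, 46.7 and 65.5 CPM in Gata4 KD, and 178 to 198 CPM in Tbx20 KD. It fell by 1.55 ± 0.12 (SE) on the log2 scale in Gata4 KD (adjusted p = 0.00272, edgeR quasi-likelihood test, 3 against 3 libraries). Tbx20 was 1010, 1275 and 720 CPM in control and 320, 426 and 428 CPM in Tbx20 KD, with a log2 fold change of -1.35 ± 0.21. In Gata4 KD it was 673.3, 512.9 and 908.5 CPM, which overlaps the control range but lies lower in mean. The Tbx20 KD libraries were all below the controls, yet Tbx20 did not pass over all genes (adjusted p = 0.748). Fibroblast genes were abundant, with Col1a1 between 2671 and 4328 CPM, although Lum, another fibroblast gene of the list, was at only 0.523 to 4.04 CPM.

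Both arms of the gene set were well expressed in control, that is, in cells transfected with scrambled guides, and the genes spanned a wide range. No untransfected cells were among the groups, so levels without transfection are not known here. The order of levels per length was set in control, as CPM per kb of annotated exons. B2m led at 2723 ± 183 CPM per kb (SD, n = 3), far above the heavy chains H2-D1 at 453 ± 23.4 and H2-K1 at 423 ± 31.6 CPM per kb. These classical heavy chains, which present to CD8 T cells, overlapped each other in range and lay above every other member but B2m. The IRG gene Irgm1, a regulator of the other IRGs, came next at 221 ± 10.0 CPM per kb and did not overlap the genes on either side. From Igtp at 163 ± 0.925 to Psme2 at 76.2 ± 6.42 CPM per kb, 8 genes followed each other with overlapping ranges, among them Gbp3, Irgm2, Iigp1 and Gbp2.

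The inducible proteasome stood lower in that order. Psmb8 and Psmb10 overlapped at 29.5 ± 0.0685 and 29.0 ± 0.606 CPM per kb, and Psmb9 was next to last at 6.06 ± 0.367 CPM per kb. Irf8, a factor of the macrophage and dendritic lineages, closed the order at 0.159 ± 0.0293 CPM per kb, with 23 to 51 counts in a library. The 2 transporter subunits differed beyond their spread, Tap1 at 35.3 ± 0.200 and Tap2 at 19.7 ± 0.110 CPM per kb. H2-M3, a heavy chain that presents formylated peptides, was at 9.65 ± 0.310 CPM per kb, well under H2-T23 (68.5 ± 2.74), which presents signal peptides to natural killer cells. Dividing by the longest transcript instead moved the median over the 29 genes from 45.7 to 54.6 CPM per kb, and it raised 8 of the 29 by over 1.5 times and changed the order. H2-K1 at 663 then lay above H2-D1 at 556 CPM per kb, Psmb8 at 52.3 above Psmb10 at 37.7, and Psme2 was at 139.7 and Iigp1 at 190.4 CPM per kb.

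**Figure D1:**
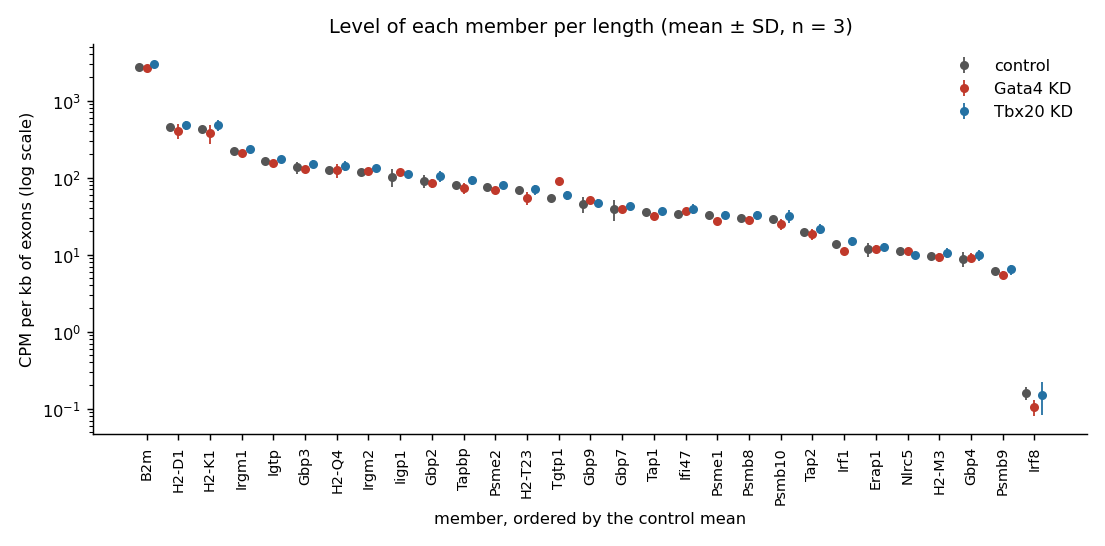
Level of each of the 29 members in CPM per kb of exons (log axis), ordered by the control mean, with points for the mean and bars for the SD of 3 libraries in control, Gata4 KD and Tbx20 KD. B2m stands at 2723 CPM per kb in control and Irf8 at 0.159, and Tgtp1 is at 54.1 in control and 90.1 in Gata4 KD.

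The standard proteasome was compared with its inducible replacements per length. Psmb8 reached 0.394 ± 0.0801 of its counterpart Psmb5 in control, 0.390 ± 0.0427 in Gata4 KD and 0.433 ± 0.0651 in Tbx20 KD (SD, n = 3). Psmb10 against Psmb7 was 0.558 ± 0.0107, 0.512 ± 0.110 and 0.620 ± 0.134 in the same order. Psmb9 against Psmb6 was lowest, at 0.107 ± 0.00975, 0.105 ± 0.0116 and 0.121 ± 0.0179. The ranges of the 3 groups overlapped for Psmb8 and Psmb9, and for Psmb10 the controls (0.551 to 0.571) lay inside the range of each knockdown. These ratios rest on annotated lengths. With the longest transcript the control mean was 0.698 for Psmb8, 0.0701 for Psmb9 and 0.605 for Psmb10.

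Other interferon genes showed which parts of the response the cells had. No read was counted for Ifng, the gene of interferon gamma, in any library, while its receptor genes Ifngr1 and Ifngr2 were at 39.7 to 60.6 and 49.4 to 58.3 CPM. Ifnb1, which encodes interferon beta, was low but present at 1.44, 2.91 and 2.71 CPM in control. The transcription factor genes Stat2 and Irf7 stood at 389 to 463 and 737 to 1013 CPM over the 9 libraries. Of 11 genes of the class II pathway, Ctss, a protease also made by other cells, was the highest at 4.46 to 16.6 CPM, and the other 10 stayed at or under 3.45 CPM. H2-DMa led these at 2.66 to 3.45 CPM, Cd74 was at 1.05 to 2.01 CPM, and H2-Aa and Ciita, the class II transactivator, had 16 counts each in all 9 libraries together.

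The genes cluster in the genome (GRCm38), which limits how independent they are. Within the MHC on chromosome 17, 10 of the 29 lie between 33915899 and 37274484, namely the 5 heavy chains, Tap1, Tap2, Tapbp, Psmb8 and Psmb9. Tap1 and Psmb9 sit head to head and overlap on opposite strands, which the stranded counting separates. On chromosome 11 lie 6 genes at separate places. Irgm1, Tgtp1 and Ifi47 lie between 48861968 and 49096974, and Igtp and Irgm2 between 58199556 and 58222782. Irf1 lies alone from 53770014 to 53778374. Gbp2, Gbp3 and Gbp7 share a stretch of chromosome 3, from 142530342 to 142638008, and Gbp4 and Gbp9 overlap on one strand of chromosome 5, as do Igtp and Irgm2 on chromosome 11. Reads in such shared parts are divided by estimation, so these pairs are uncertain.

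Promoter windows from RefSeq (GRCm38.p6, 250 bases before to 50 after a start) were found for 25 of the 31 genes, and those for Tap2, Nlrc5, Gbp4, Gbp6, Gbp9 and Iigp1 were not used here. They were searched on both strands for an interferon-stimulated response element (ISRE, here 2 GAAA repeats that are 2 bases apart) and for a gamma-activated site (GAS, TTCNNNGAA), the sites that interferon-activated factors bind. An ISRE lay in the windows of 12 of the 25 genes, B2m, H2-T23, Erap1, Psme1, Gbp2, Gbp3, Gbp5, Gbp7, Irgm1, Irgm2, Igtp and Tgtp1, against 3.44% of 32851 promoter windows. A GAS lay in 9 of the 25, against 8.30% of all windows. GATA-type sites (AGATAA) were found in 3 genes (Gbp5, Tgtp1 and Ifi47; 11.2% of all windows), and the T-box half-site AGGTGTGA and the cAMP response element TGACGTCA in 0 of 25 (1.28% and 1.79% of all windows). A match describes letters and not a bound site, and a window without one says only that these letters are not in it.

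Examples from each branch of the set are shown so that the elements can be seen, with the element in capitals and each stretch read 5′ to 3′ along the strand of its gene. They are the light chain B2m (chr2:122147533-122147572, plus strand), the heavy chain H2-T23 (chr17:36032801-36032840, minus strand) and Gbp2 (chr3:142620589-142620628, plus strand) with an ISRE, and the inducible subunit Psmb8 (chr17:34198083-34198122, plus strand) and Irf1 (chr11:53769909-53769948, plus strand) with a GAS.
B2m: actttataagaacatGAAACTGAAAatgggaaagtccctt
H2-T23: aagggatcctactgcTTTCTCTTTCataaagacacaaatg
Gbp2: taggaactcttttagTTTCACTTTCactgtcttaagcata
Psmb8: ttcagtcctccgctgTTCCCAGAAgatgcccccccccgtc
Irf1: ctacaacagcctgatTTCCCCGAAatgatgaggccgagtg

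Both elements occurred together in 5 of the members with a window, the IRGs Tgtp1, Igtp and Irgm2 and the GBPs Gbp5 and Gbp7. Of the other IRGs, Irgm1 held ISREs alone and Ifi47 neither element. In Tgtp1, Igtp and Irgm2 the ISRE began 11 bases after the start of the GAS, on the strand of the gene. This spacing was picked out after the windows were read, and it occurred in 5 of the 32851 windows, those of Tgtp1, Igtp, Irgm2, Tgtp2 and Gm12185. Of these, Tgtp2 and Gm12185 are not members but share sequence with Tgtp1. The stretches below hold both elements in capitals. They come from chr11:48992295-48992354 (minus strand) for Tgtp1, chr11:49064254-49064313 (minus strand) for Tgtp2, chr11:58199491-58199550 (plus strand) for Igtp and chr11:58214882-58214941 (plus strand) for Irgm2.
Tgtp1: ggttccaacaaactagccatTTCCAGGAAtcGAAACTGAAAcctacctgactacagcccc
Tgtp2: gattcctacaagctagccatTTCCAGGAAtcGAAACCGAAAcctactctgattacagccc
Igtp: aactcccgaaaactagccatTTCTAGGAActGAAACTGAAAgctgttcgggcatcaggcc
Irgm2: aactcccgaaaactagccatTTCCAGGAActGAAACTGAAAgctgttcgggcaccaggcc
Position by position, Igtp and Irgm2 had the same base at 58 of 60 places, and Tgtp1 and Tgtp2 at 46 of 60. The GATA-type letters of the Tgtp1 window lay outside the stretch, 33 bases before the start.

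Libraries of one group differed from each other across most of the set, in a way that bears on every comparison. Each gene's log2 CPM was set against its own mean over the 9 libraries. The median over the 29 genes was lowest in Gata4 KD b (-0.22) and highest in Tbx20 KD b (0.27). In Gata4 KD it was -0.13 in a and 0.09 in c, in Tbx20 KD -0.08 in a and 0.13 in c, and in control between -0.07 and 0.06. Gata4 KD b held the lowest value of 18 of the 29 genes and Tbx20 KD b the highest of 22. The median SD of log2 CPM within a group was 0.11 in control, 0.17 in Gata4 KD and 0.19 in Tbx20 KD for the members, against 0.16, 0.12 and 0.10 for all 14342 genes tested against control in both knockdowns.

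Controls differed mainly in the GTPases. The median deviation of the 11 GTPases was 0.26 in control b and -0.19 and -0.18 in a and c, while the 15 genes of presentation stayed between -0.02 and 0.04 in these libraries. Gbp7, for example, was at 181, 294 and 183 CPM in control a, b and c, and Iigp1 at 519, 765 and 498 CPM, so that control b stood above every library of both knockdowns for both genes.

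**Figure D2:**
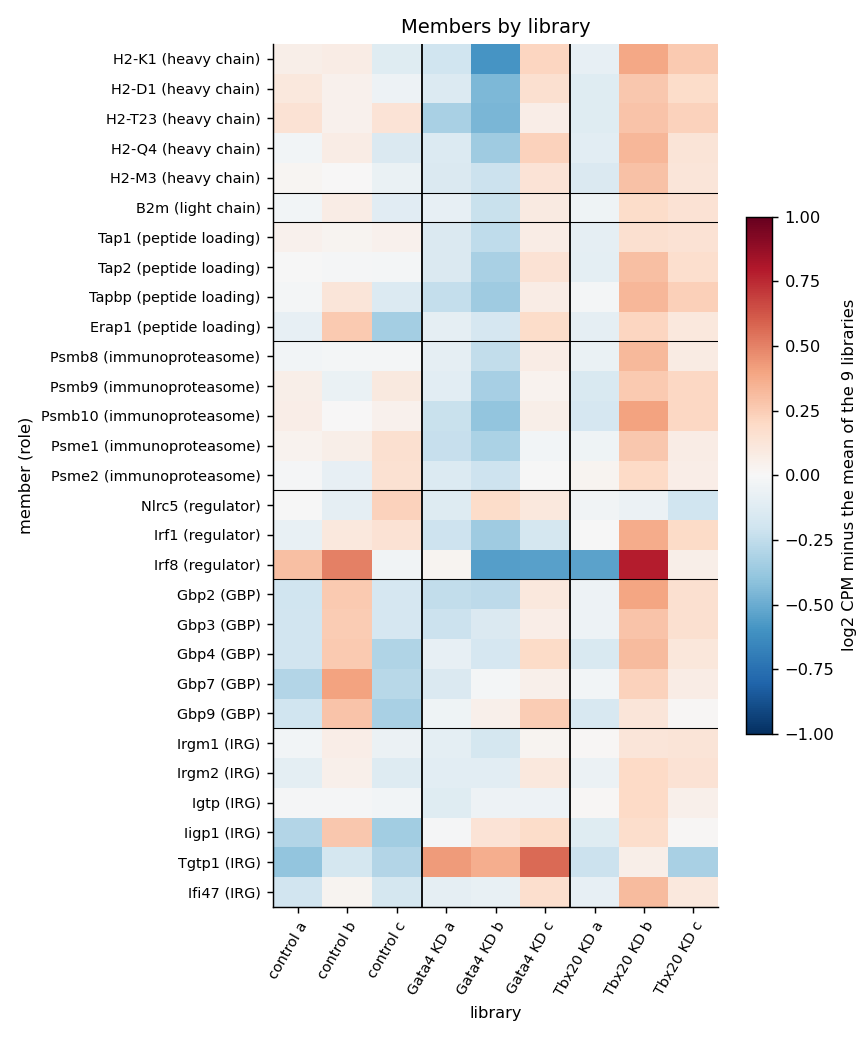
Deviation of each member (rows, with roles) in each of the 9 libraries (columns) from its mean over all libraries, in log2 CPM, where red is above and blue below. Gata4 KD b is the lowest library for 18 of 29 members and Tbx20 KD b the highest for 22, and only the Tgtp1 row is high in all 3 Gata4 KD libraries and in no other library to that degree.

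Leukocyte transcripts moved with the same libraries, fibroblast transcripts did so in part, and endothelial transcripts had their extremes in other libraries. The summed level of 15 markers of macrophages and other leukocytes was 57.5 to 66.2 CPM in control, 30.2 to 58.8 in Gata4 KD and 52.2 to 87.6 in Tbx20 KD. The lowest sum was that of Gata4 KD b and the highest that of Tbx20 KD b, which held the lowest value of 14 of the 15 markers and the highest of 14, respectively. None of the 15 was at 0 in the series, Ptprc, which encodes the sorted-out CD45, lying at 1.62 to 3.13 CPM. Of 9 T and natural killer cell markers, 6 (among them Cd3e and Ncr1) had 0 counts in all libraries, and the 9 together had at most 5 counts in a library. Gata4 KD b was also the lowest library for 7 of 10 fibroblast markers, with Col1a1 at 2671 CPM and Tcf21 at 88.1 CPM there. Tbx20 KD b was the highest for 2 of these markers, and Gata4 KD c and Tbx20 KD c for 3 each. The summed level of 10 endothelial markers was lowest in control c (42.1 CPM) and highest in Gata4 KD c (63.1 CPM). That sum was 44.7 CPM in Gata4 KD b and 57.9 CPM in Tbx20 KD b. The part of these cell types in the differences below was not tested, and in such bulk samples fewer cells of a type and less RNA per cell cannot be told apart.

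**Figure D3:**
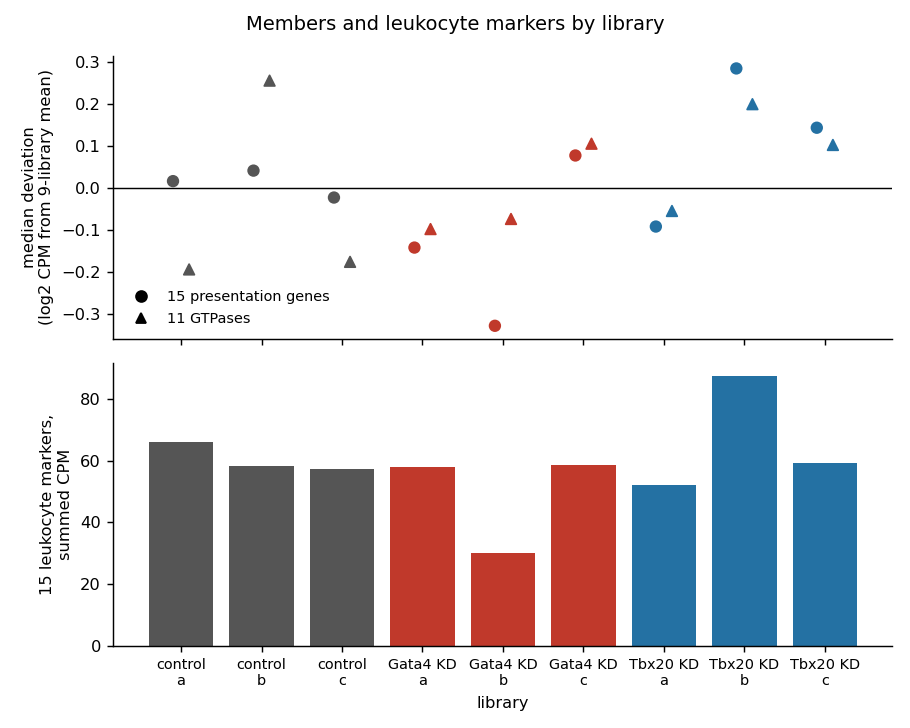
Upper panel, median deviation (log2 CPM) of the 15 presentation genes (circles) and the 11 GTPases (triangles) in each library, and lower panel, summed CPM of 15 leukocyte markers in the same libraries, with colours for control (grey), Gata4 KD (red) and Tbx20 KD (blue). Gata4 KD b, at 30.2 CPM, is lowest and Tbx20 KD b, at 87.6 CPM, is highest for the markers, and the presentation genes have their lowest and highest medians in the same libraries.

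The first comparison asked what loss of Gata4 did to the set. A single gene, the IRG Tgtp1, passed the test in Gata4 KD against control, and it rose. The other 28 did not pass, with 7 higher and 21 lower in their fitted log2 fold change. Over all genes 0.38% were called (55 of 14468), and the median log2 fold change was -0.07 for the members and -0.02 for all genes. Of the 29 genes 3 lay lower in every Gata4 KD library than in every control (Irf1, Psme1 and Igtp), as 7.62% of all genes did, so the count of these was near the background.

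Tgtp1 (ENSMUSG00000078922, chromosome 11, 48985327 to 48994172), a GTPase first known from T cells, was at 161, 187 and 173 CPM in control and at 283, 271 and 312 CPM in Gata4 KD. All Gata4 KD libraries were above all controls, and above the Tbx20 KD libraries at 182, 220 and 169 CPM. The log2 fold change against control was 0.74 ± 0.09 (SE), a 1.67-fold rise (adjusted p = 0.0245, edgeR quasi-likelihood test). Over 15 alternatives it passed in 9, and it was lost without control a or c or Gata4 KD a or b (adjusted p = 0.164, 0.0855, 0.167 and 0.088) and with the replicate letter as a block (0.18). Without those libraries its log2 fold change was 0.69 to 0.78. Calls over all genes fell from 55 to 3 higher and 3 lower without control a and 8 and 6 without control c. They fell to 6 and 4 without Gata4 KD a and 5 and 4 without Gata4 KD b. The Tgtp1 call holds for the count given to Tgtp1 by the authors' estimation and not for its sequence. Of the 75 base windows of Tgtp1 transcripts, 77.2% also occur in other genes, 74.6% in Tgtp2.

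Tgtp2, the near-identical neighbour, was at 451, 560 and 407 CPM in control and at 462, 418 and 570 CPM in Gata4 KD, groups that overlap throughout (log2 fold change 0.03 ± 0.15, adjusted p = 0.973). Tgtp1 made up 25 to 29.8% of the sum of both genes in control, 35.4 to 39.4% in Gata4 KD and 23.4 to 26.5% in Tbx20 KD. The sum itself was 646 ± 88.4 CPM in control, 772 ± 99.1 in Gata4 KD and 753 ± 88.0 in Tbx20 KD (SD, n = 3), and control b at 746 CPM lay above Gata4 KD a and b at 744 and 689 CPM. With Tgtp1, Tgtp2 and Gm12185 fitted as 1 gene, the log2 fold change was 0.25 ± 0.13 and did not pass (adjusted p = 0.665).

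**Figure D4:**
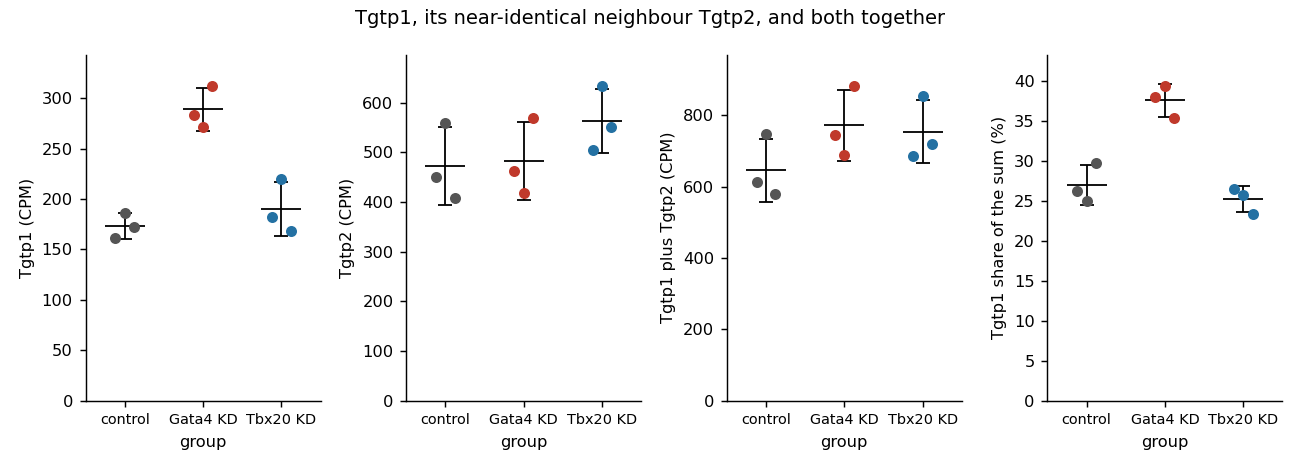
From left to right, CPM of Tgtp1, of Tgtp2 and of their sum, and the share of Tgtp1 in that sum (%), with 1 point per library and the mean and SD (n = 3) of control, Gata4 KD and Tbx20 KD. Tgtp1 and its share are higher in all Gata4 KD libraries than in all others, while Tgtp2 and the sum overlap between the groups.

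Of the genes that did not pass, Irf1 came closest. This transcription factor drives class I and GBP promoters, and it was at 49.0, 55.8 and 57.2 CPM in control and 44.9, 40.4 and 45.9 CPM in Gata4 KD. Every Gata4 KD library lay below every control, and the log2 fold change was -0.30 ± 0.09 (adjusted p = 0.347). Psme1, a subunit of the proteasome activator, was at 69.5, 70.7 and 75.7 CPM in control and 57.5, 54.5 and 66.5 CPM in Gata4 KD (-0.27 ± 0.10, adjusted p = 0.441). H2-T23 was at 203, 189 and 202 CPM in control and 146, 133 and 192 CPM in Gata4 KD (-0.33 ± 0.13, adjusted p = 0.530), where Gata4 KD c overlapped the controls. It shares 5.91% of its windows with other genes, and H2-K1, H2-D1 and H2-Q4 share 3.10 to 7.02%. H2-T23 was also fitted as 1 gene with genes linked to it, directly or through others, by shared windows, H2-D1 and H2-Q4 among them. That sum was at -0.09 ± 0.13 in this comparison. In Gata4 KD against Tbx20 KD it was at -0.22, against -0.36 for H2-T23 alone. The sum averaged 2665 CPM in control and H2-T23 198 CPM, so it mostly follows the other genes and does not test the change of H2-T23. At an unadjusted p under 0.05, Tgtp1 was higher and Irf1, Psme1 and H2-T23 were lower, 4 of 29 genes, while 8.54% of all genes met that level.

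By role, all 5 heavy chains had lower means in Gata4 KD, with log2 fold changes from -0.33 (H2-T23) to -0.04 (H2-Q4). For H2-K1 the libraries were 1289, 1301 and 1135 CPM in control and 1079, 821 and 1437 CPM in Gata4 KD, so that Gata4 KD spread from below to above the controls. The light chain B2m stood at 2342 ± 157 CPM in control and 2268 ± 248 in Gata4 KD (-0.05 ± 0.10). Of the genes of peptide loading, Tap1, Tap2 and Tapbp had log2 fold changes of -0.14, -0.08 and -0.15 and Erap1 one of 0.02. The 5 genes of the immunoproteasome were all lower in mean, from -0.27 (Psme1) to -0.06 (Psmb8), and Psme2, which shares 22.9% of its windows with Psme2b, was at -0.13 ± 0.09. Among the regulators Nlrc5 was at 93.5 ± 10.99 CPM in control and 94.2 ± 10.5 in Gata4 KD, and Irf8 was at 1.12 ± 0.207 CPM in control and 0.738 ± 0.179 in Gata4 KD (adjusted p = 0.624).

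The GTPases other than Tgtp1 lay on both sides of 0. The 5 GBPs ranged from -0.11 (Gbp2) to 0.15 (Gbp9) on the log2 scale with SEs of 0.14 to 0.18, and Gbp7 shares 11.3% of its windows with other genes. Irgm1, Irgm2 and Igtp were at -0.07, 0.02 and -0.06, and Iigp1 and Ifi47 at 0.20 ± 0.16 and 0.12 ± 0.10. The list medians were 0.02 for the 11 GTPases and -0.14 for the 15 genes of presentation, beside -0.02 over all genes.

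Loss of Tbx20 was the second question. No gene of the set passed the test in Tbx20 KD against control, where 1 of 14547 genes was called in all (0.00687%). The edgeR test gave 0 of 29 at an unadjusted p under 0.05 as well, a level that 2.69% of all genes met, and DESeq2, limma-voom and an exact test also called 0. The fitted log2 fold changes were small and mostly of one sign, higher in 27 of 29 genes with a median of 0.13, beside 49.3% higher and a median of -0.002 over all genes. Without Tbx20 KD b, the library with the highest value of 22 of the 29 genes, the median was 0.05 and 23 of 29 were higher. Leaving out so high a library lowers the median by itself, so this fall speaks to no cause. A group wholly above the controls was seen only for Igtp, 1 of 29, against 2.8% of all genes.

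Ifi47, an IRG, had the smallest p, at 78.2, 91.0 and 79.2 CPM in control and 84.5, 112 and 96.0 CPM in Tbx20 KD (0.24 ± 0.12, adjusted p = 1). Tapbp was at 291, 320 and 267 CPM in control and 290, 370 and 347 CPM in Tbx20 KD (0.21 ± 0.11, adjusted p = 1). Irgm2 was at 429, 475 and 417 CPM in control and 440, 524 and 505 CPM in Tbx20 KD (0.16 ± 0.09, adjusted p = 1). In all 3 genes Tbx20 KD a lay within the control range while b and c lay above it. The genes with lower means were Nlrc5 (-0.13 ± 0.10) and Irf8 (-0.08 ± 0.35). The median was 0.13 for the genes of presentation and 0.14 for the GTPases, and Tgtp1 stood at 0.14 ± 0.11.

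**Figure D5:**
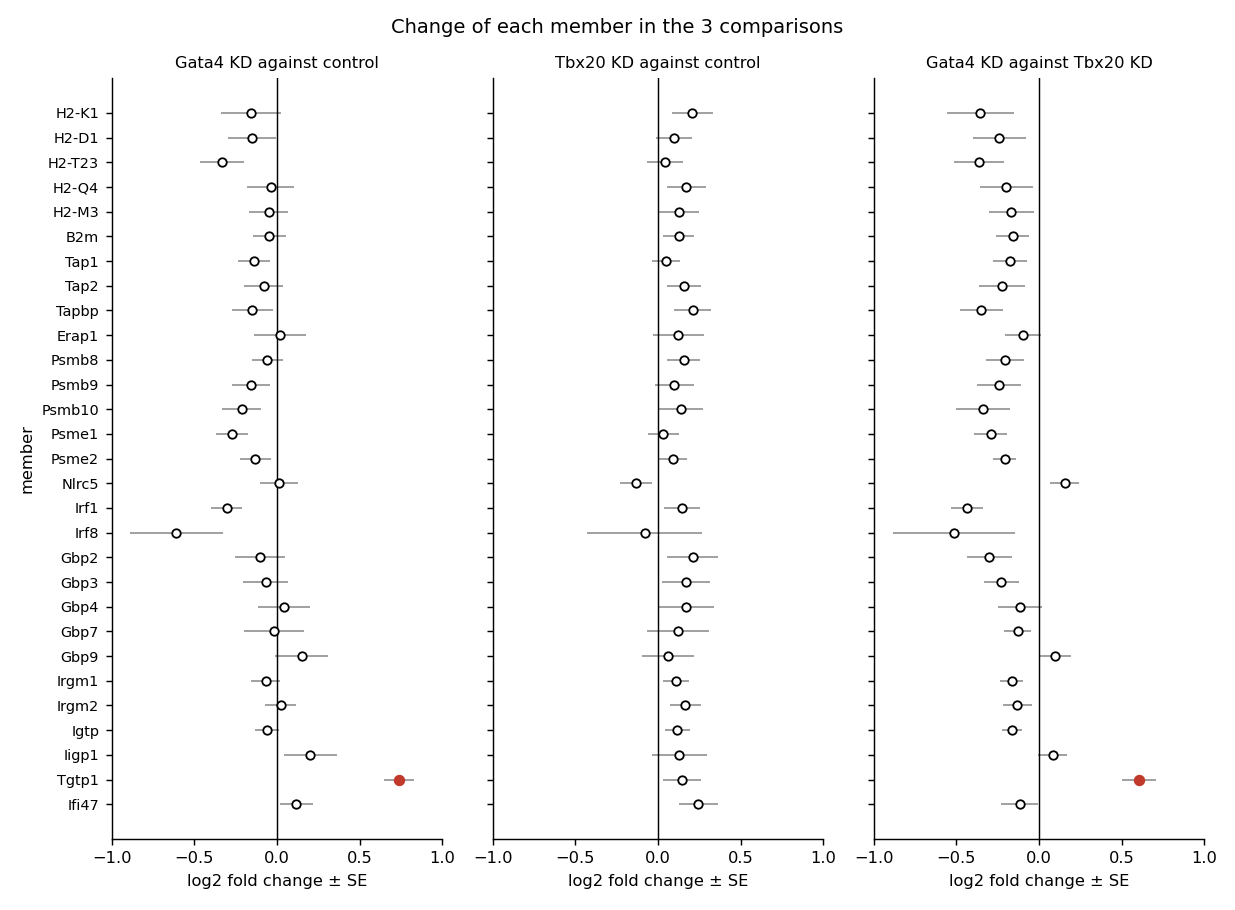
Log2 fold change of each member with its SE in the 3 comparisons, each from 3 against 3 libraries, with filled red points for genes past the adjusted threshold. Tgtp1 is the filled point at 0.74 in Gata4 KD against control and at 0.60 in Gata4 KD against Tbx20 KD, and the middle panel has none.

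Both knockdowns were then compared directly, which uses no control library. Again Tgtp1 alone passed, higher in Gata4 KD by 0.60 ± 0.10 on the log2 scale (adjusted p = 0.0430), a call that was lost when it was fitted as 1 gene with Tgtp2 and Gm12185 (0.03 ± 0.11, adjusted p = 0.915). Over 16 alternatives it passed in 8. It was also lost without Gata4 KD a or b or Tbx20 KD a or c (adjusted p = 0.161, 0.094, 0.103 and 0.171), without library b of both (0.113), with library size alone (0.056) and with the replicate block (0.0916). In this comparison 1.44% of all genes were called (208 of 14477). The other genes were mostly lower in Gata4 KD, 25 of 29 with a median of -0.20, beside 51.7% lower and a median of -0.01 over all genes. All 15 genes of presentation were lower in mean (median -0.23), and of the 11 GTPases 8 were (median -0.13). Library b of each knockdown, which held the lowest and the highest values of most members, was left out after these values were seen, and 20 of 29 genes were then lower with a median of -0.05. Leaving out the lowest library of one group and the highest of the other shrinks the difference by itself, so this change in the median speaks to no cause.

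Groups that did not overlap were few. Irf1, Psme2 and Igtp were lower in every Gata4 KD library than in every Tbx20 KD library, 3 of 29, while 10.8% of all genes were. Irf1 was at 51.6, 66.9 and 59.1 CPM in Tbx20 KD against the 40.4 to 45.9 CPM of Gata4 KD, with a log2 fold change of -0.44 ± 0.10 (adjusted p = 0.0895). It passed in DESeq2 (adjusted p = 0.00459), in an exact test (0.0051) and with no filter on low counts (0.0427), and over all 16 alternatives its adjusted p ranged from 0.00459 to 0.572. Psme2 was at 135, 152 and 139 CPM in Tbx20 KD and 121, 115 and 132 CPM in Gata4 KD (-0.21 ± 0.07, adjusted p = 0.199), and Psme1 at 65.8, 81.8 and 71.4 against 57.5, 54.5 and 66.5 CPM (-0.29 ± 0.10, adjusted p = 0.206). At an unadjusted p under 0.05, 1 gene was higher and 7 were lower, and 16.7% of all genes met that level.

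Heavy chains showed how wide the spread was. H2-K1 was at 1168, 1615 and 1484 CPM in Tbx20 KD against 1079, 821 and 1437 CPM in Gata4 KD (-0.36 ± 0.21, adjusted p = 0.432). H2-D1 was at 1053, 1375 and 1297 against 1038, 835 and 1280 CPM (-0.24 ± 0.16, adjusted p = 0.494). In both genes library a of Tbx20 KD lay inside the Gata4 KD range. Without Gata4 KD c, H2-T23 (-0.54, adjusted p = 0.0479) and Tapbp (-0.49, adjusted p = 0.0439) passed beside Tgtp1, so that 1 library decided these calls.

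Igtp (chromosome 11, 58199556 to 58207591) was the member whose knockdown groups lay on opposite sides of control. It was at 330, 330 and 326 CPM in control, 305, 320 and 320 CPM in Gata4 KD and 335, 381 and 344 CPM in Tbx20 KD. The controls lay very close together (SD 1.87 CPM, against 8.80 in Gata4 KD and 24.3 in Tbx20 KD), so small shifts were enough to separate the groups. The share of all genes separated on both sides of control was not counted. Its adjusted p was 0.874 and 1 against control and 0.240 in the direct comparison (-0.16 ± 0.06), and it shares 7.80% of its windows with Irgm2.

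Interferon and antigen presentation genes outside the set gave a frame for these values. In the direct comparison Ifnb1 passed, at 0.756, 0.853 and 0.968 CPM in Gata4 KD and 1.75, 2.19 and 2.16 CPM in Tbx20 KD (-1.23 ± 0.19, adjusted p = 0.0303), 1 of 20 interferon signalling genes tested. Against control, where it was 1.44 to 2.91 CPM, its log2 fold change in Gata4 KD was -1.45 ± 0.31 (adjusted p = 0.128), with all Gata4 KD libraries below all controls. Of 19 targets of interferon gamma tested, 2 passed in the direct comparison, both lower in Gata4 KD. They were the chemokine gene Cxcl10, at 98.4, 114 and 133 against 186, 261 and 200 CPM (-0.91 ± 0.15, adjusted p = 0.0404), and the adhesion molecule gene Vcam1, at 564, 501 and 577 against 758, 870 and 768 CPM (-0.55 ± 0.08, adjusted p = 0.0258). Vcam1 was just outside the threshold against control (-0.61 ± 0.10, adjusted p = 0.0511). Both groups of Cxcl10 and Vcam1 were separate in the direct comparison.

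Other lists held no call in any comparison. These were 29 antiviral genes of the type I interferon response, 16 standard proteasome genes, 17 further genes of class I loading and control, 14 other class I heavy chain genes and relatives, 6 class II genes and 15 other interferon-inducible GTPases that could be tested. In the direct comparison the antiviral genes had a median of -0.14, with 24 of 29 lower, and the standard proteasome genes one of -0.03, with 12 of 16 lower. The antiviral gene with the smallest p there was Cmpk2 (-0.40 ± 0.09, adjusted p = 0.0989). Against control in Gata4 KD the medians were -0.06 and -0.05 for these lists, and in Tbx20 KD 0.08 and -0.02. The direct medians were 0.05 for the further loading genes, -0.08 for the other class I genes, -0.31 for class II and -0.06 for the other GTPases. Among other class I genes H2-T24 had the smallest p in Gata4 KD against control (0.44 ± 0.15, adjusted p = 0.399), with all Gata4 KD libraries above the controls.

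Markers of other cell types were tested in the same fits. All 15 leukocyte markers were lower in Gata4 KD than in Tbx20 KD in mean, with a median of -0.53 and no call, and against control 14 of 15 were lower in Gata4 KD (median -0.33) and 14 of 15 higher in Tbx20 KD (median 0.16). Of the 3 dendritic and B cell markers tested, Zbtb46, a gene of dendritic cells, passed in the direct comparison (-0.71 ± 0.12, adjusted p = 0.0402), at 8.13 to 9.49 CPM in Gata4 KD and 12.1 to 15.8 CPM in Tbx20 KD. Of 10 endothelial markers 4 were higher and 6 lower in mean in Gata4 KD than in Tbx20 KD (median -0.11), and 1 of them passed, Kdr (0.90 ± 0.13, adjusted p = 0.0258), at 5.06 to 6.19 against 2.68 to 3.22 CPM. Of 10 fibroblast markers 7 were lower in mean in Gata4 KD, both against control (median -0.21) and against Tbx20 KD (median -0.28), with no call. The part of these cell types in the values of the gene set was not tested.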

How the data were processed

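The study's methods state that stranded single-end reads of 75 bases were quality trimmed, aligned to GRCm38 with Bowtie2 and counted per gene by RSEM with the strand set; the submitters' processing notes name Bowtie, RSEM and the build mm9. The deposited values are expected counts per gene as the authors estimated them, whole numbers and not normalized, and RSEM divides reads that match several genes by estimation. Symbols and positions came from GENCODE M21 (GRCm38) for 37607 of 38924 gene IDs. Those without a symbol held 0.262% of counts.

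Each comparison was fitted on its 6 libraries in R 4.3.3 with edgeR 4.0.16 (filterByExpr, TMM, glmQLFit, glmQLFTest), with Benjamini-Hochberg adjustment over all genes tested and a threshold of 0.05. The study also used edgeR. For a single value, 0.1 is the smallest p that an exact permutation of 3 against 3 libraries allows. CPM was scaled by TMM over all 9 libraries. Genes were taken to share sequence by common 75 base windows of transcripts. Genes linked by 2% or more of a member's windows, directly or through another gene, were summed in one alternative. It is named near-identical genes summed below, although many of the genes summed share only a small part of their windows. Full statistics were given for members past the threshold and for the 3 smallest p in a comparison, and for other lists genes past the threshold or the 3 smallest p. The direct values of H2-K1, H2-D1 and Igtp, and Ifng, Ciita, H2-Aa, H2-DMa, Cd74, Ctss, Tcf21, Gm42418, Stat2, Col1a1, Lum, Ptprc, Cd3e, Ncr1 and the subunits Psmb5, Psmb6 and Psmb7 were named outside this rule. The members and lists were chosen with earlier results of these data known. The procedure was run on simulated counts drawn independently for each gene. They held no shift of the set in a library and no reads shared between genes, so that run bears on neither. Alternatives used DESeq2 1.42.0 and limma 3.58.1 beside other edgeR settings.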

Additional observations from a re-analysis of the deposited data

Results flagged for a closer look

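Among the members and the lists set beside them, 6 genes differed between the knockdowns past the threshold in the test of that difference itself, Gata4 KD against Tbx20 KD, in log2 fold change. They were Tgtp1 (0.60), Ifnb1 (-1.23), Cxcl10 (-0.91), Vcam1 (-0.55), Zbtb46 (-0.71) and Kdr (0.90). Of these only Tgtp1 was followed under the alternatives, so how firm the other calls are was not tested. Over all genes, 118 higher and 90 lower were called in this comparison, 1.44% of 14477 tested. The members and lists were chosen with earlier results of these data known, so the 6 genes are not read against that share. Leaving out 1 library gave from 13 higher and 9 lower (without Gata4 KD a) to 402 higher and 399 lower (without Gata4 KD c). Tgtp1 stands out from the other members by its direction, since 25 of the 29 were lower in Gata4 KD in this comparison, and its change is one of its share of the Tgtp1 and Tgtp2 sum. Whether that share follows the cells or the division of reads between near-identical genes cannot be told apart in a table of gene counts.

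Igtp was picked out because every Gata4 KD library lay below every control and every Tbx20 KD library above, with a direct log2 fold change of -0.16. Its controls were very close together (SD 1.87 CPM), and the share of all genes separated in this way was not counted. Its direct test did not pass (adjusted p = 0.240).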

How the results depend on the processing

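There were 15 alternatives for each comparison, and 16 for the direct one, where leaving out library b of both knockdowns was added after seeing the data. In Gata4 KD against control the count of members past the threshold stayed at 1 except with near-identical genes summed (0) and with the replicate letter as a block (0), and leaving out 1 library gave 0 to 1. In Tbx20 KD against control it was 0 throughout (0 to 0 leaving out 1 library). In the direct comparison it was 2 in DESeq2, in the exact test and with no filter on low counts, and 0 with library size alone, with the replicate block, with near-identical genes summed and without library b of both, while leaving out 1 library gave 0 to 3. The median over the members ranged over single libraries left out from -0.14 to -0.03 in Gata4 KD against control, 0.05 to 0.20 in Tbx20 KD against control and -0.29 to -0.12 in the direct comparison, and was -0.046 without library b of both.

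Gata4 stayed past the threshold in every alternative run, with -1.665 to -1.442 over single libraries left out. Tbx20 passed in DESeq2 (-1.347), in the exact test (-1.347) and with no filter (-1.341), with -1.533 to -1.125 over single libraries left out. Same-letter libraries of different groups had correlations of their deviations from -0.17 to 0.255, so the letters were not taken to pair the samples. With the replicate letter as a block, Gata4 was at -1.565 (adjusted p = 0.0345) and Tbx20 at -1.321 (adjusted p = 0.0746), and all genes called fell from 55 to 2 higher and 3 lower in Gata4 KD against control and from 208 to 56 higher and 45 lower in the direct comparison. DESeq2 called 128 higher and 136 lower, and 436 higher and 307 lower, in these comparisons.

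Members whose fitted sign turned had no call, and the cause was not tested. Of 1333 values of members under alternatives, 45 turned sign. In Gata4 KD against control, single libraries left out gave -0.364 to 0.019 for H2-K1, -0.190 to 0.084 for H2-Q4, -0.140 to 0.018 for H2-M3, -0.107 to 0.026 for B2m, -0.194 to 0.024 for Tap2, -0.115 to 0.191 for Erap1, -0.121 to 0.017 for Psmb8, -0.056 to 0.114 for Nlrc5, -0.209 to 0.059 for Gbp2, -0.150 to 0.091 for Gbp3, -0.064 to 0.232 for Gbp4, -0.138 to 0.253 for Gbp7 and -0.029 to 0.080 for Irgm2. In Tbx20 KD against control they gave -0.037 to 0.158 for H2-T23, -0.006 to 0.305 for Erap1, -0.002 to 0.280 for Psmb10, -0.060 to 0.101 for Psme1, -0.476 to 0.192 for Irf8, -0.004 to 0.401 for Gbp7 and -0.054 to 0.274 for Gbp9, and in the direct comparison -0.236 to 0.001 for Gbp4. Other turns in Gata4 KD against control were Nlrc5 with library size alone (-0.000) and Gbp7 in limma-voom and with the replicate block (0.019 in both). Irgm2 summed with Igtp (-0.013) turned there as well. Without library b of both knockdowns, H2-Q4 (0.037), H2-M3 (0.005), Erap1 (0.043), Gbp4 (0.074) and Ifi47 (0.030) turned in the direct comparison.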
